A study of Mus musculus with 40 samples.

Results

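The Ms4a genes of macrophages form a cluster on mouse chromosome 19 and encode small multi-pass proteins of the cell membrane. The 6 members examined here, Ms4a4a, Ms4a4c, Ms4a6b, Ms4a6c, Ms4a6d and Ms4a7, were picked by gene symbol, with earlier results of these data known. Each matched 1 of the 54307 Ensembl genes in the table of normalized counts, and all 6 passed the filter on low values (a mean of at least 1) in both tissues. RNA was sequenced from the choroid and the retina of 20 mice with laser-induced choroidal neovascularization (CNV), 5 mice in each of 4 groups, which gave 40 libraries. All mice were of C57BL/6J background, of both sexes, carried 2 floxed Tgfbr2 alleles and were given tamoxifen eye drops at 6 to 7 weeks of age. Tgfbr2ΔEC mice also carried a tamoxifen-inducible Cre recombinase under the Cdh5 promoter, which is active in endothelial cells, so the deletion of the TGFβ receptor gene was aimed at the endothelium. Control mice were littermates without the Cre. The diet of the + PLX groups contained PLX5622, an inhibitor of the CSF1 receptor on which most mononuclear phagocytes (MP) depend, from the first tamoxifen drop to the end. The – PLX groups had control food. Each eye received 6 laser burns, tissue was taken on day 3 after the laser, and of the choroid only the central, lesioned part was used. Mice 1 to 5 were control – PLX, mice 6 to 10 Tgfbr2ΔEC – PLX, mice 11 to 15 control + PLX and mice 16 to 20 Tgfbr2ΔEC + PLX.

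MS4A proteins sit in the plasma membrane beside receptors of immune cells and tune their signalling and transport. The best known relatives are Ms4a1, which encodes the B cell antigen CD20, and Ms4a2, the beta chain of the mast cell receptor for IgE. The macrophage members are less well understood. MS4A4A lies next to the receptor Dectin-1 (Clec7a) in macrophages, Ms4a6d has been described as a membrane partner of the complement receptor VSIG4, and human variants near MS4A4A and MS4A6A are linked to soluble TREM2 and to the risk of Alzheimer's disease. Ms4a7 is widely used to separate macrophages of tissue borders and blood-derived macrophages from microglia. Ms4a4c is often listed among interferon-induced genes of monocytes. Ms4a6b has been studied in T cells as well as in macrophages.

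All 21 annotated Ms4a genes were in the table and lay within chr19:10939657-11618215 of the GRCm39 build. The 6 members spanned 283811 bases of it, from the start of Ms4a7 to the end of Ms4a6d. Ms4a7 (ENSMUSG00000024672, chr19:11298403-11313510) and Ms4a6d (ENSMUSG00000024679, chr19:11563968-11582213) lie on the minus strand. The other members lie on the plus strand: Ms4a4a (ENSMUSG00000101389, chr19:11352823-11370154), Ms4a4c (ENSMUSG00000024675, chr19:11382131-11404610), Ms4a6c (ENSMUSG00000079419, chr19:11446718-11462204) and Ms4a6b (ENSMUSG00000024677, chr19:11493876-11508620). The coding sequences of the Ms4a6 genes were the most alike, with 85.3% identical bases between Ms4a6b and Ms4a6c, 81.3% between Ms4a6b and Ms4a6d and 77.1% between Ms4a6c and Ms4a6d. Ms4a4a and Ms4a4c shared 65.8%, and the other 11 pairs 51.8% to 59.4%. Reads of 50 bases could still separate these genes, because no stretch of 50 bases was shared between members. Ms4a4c shared 1.02% of its 50-base stretches with its neighbour Ms4a4b, Ms4a7 shared 0.33% with scattered other genes, Ms4a6c 0.2% and Ms4a6d 0.06%, and Ms4a4a and Ms4a6b shared none.

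The 250 bases upstream of the annotated start of the canonical transcript are printed for Ms4a6b and Ms4a6c, whose promoters resemble each other, and for Ms4a7, the member with the most reads in the choroid. Sequences are from GRCm39, 5′ to 3′ on the strand of the gene, and end at the base before the start. Capitals mark GAGGAA or GGAAGT on either strand (ACTTCC is GGAAGT read on the other strand), the core letters bound by PU.1 and other ETS factors of myeloid cells, and the Ms4a6c window holds neither.
Ms4a6b (chr19:11495673-11495922, plus strand): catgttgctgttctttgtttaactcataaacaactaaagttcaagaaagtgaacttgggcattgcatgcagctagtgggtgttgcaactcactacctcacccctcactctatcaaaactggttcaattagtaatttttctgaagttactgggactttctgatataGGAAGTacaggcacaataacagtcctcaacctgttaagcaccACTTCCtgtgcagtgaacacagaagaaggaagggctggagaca
Ms4a6c (chr19:11446468-11446717, plus strand): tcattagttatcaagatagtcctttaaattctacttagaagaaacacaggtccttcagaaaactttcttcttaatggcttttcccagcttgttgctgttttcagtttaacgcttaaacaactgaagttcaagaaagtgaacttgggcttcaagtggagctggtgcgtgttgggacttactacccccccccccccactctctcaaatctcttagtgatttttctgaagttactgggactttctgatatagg
Ms4a7 (chr19:11313509-11313758, minus strand): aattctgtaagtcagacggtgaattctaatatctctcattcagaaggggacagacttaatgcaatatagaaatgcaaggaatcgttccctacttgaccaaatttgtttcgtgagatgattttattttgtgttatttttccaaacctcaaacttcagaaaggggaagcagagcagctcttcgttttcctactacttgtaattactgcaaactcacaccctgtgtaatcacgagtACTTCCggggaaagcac

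A local alignment of these windows matched 159 bases between Ms4a6b and Ms4a6c, with 84.9% identity. The match was shifted, since positions −248 to −84 from the start of Ms4a6b paired with −161 to −1 of Ms4a6c. It ended at the last base of the Ms4a6c window, inside the GGAAGT that Ms4a6b holds at −85 to −80. The Ms4a6c window thus cuts off the place of this site, and the bases past its start were not examined. GGAAGT was found in 3 of the 5 member promoters examined, namely Ms4a4c, Ms4a6b and Ms4a7 but not Ms4a4a or Ms4a6c, and in 18.97% of 21770 promoters of the same length. GAGGAA was found in 1 of 5, Ms4a4c, and in 22.92% of all. The longer GAGGAAGT, which holds both shorter motifs, was in none of these 5 and in 2.08% of all, and TATAAA was in none of them and in 11.92% of all. A match of letters is a description of the window and not a measured binding site.

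Levels are given as normalized counts, that is, estimated reads per gene that the authors divided by the size factor of the library. Libraries held about 21447879 to 28553430 reads in choroid and 20959033 to 30544579 in retina, so that 1 read was worth 0.742 to 1.195 normalized counts and 3 reads, taken here as the floor of detection, 2.23 to 3.59. This floor covers counting error only. The choroid of control – PLX mice was far richer than the retina in markers of the retinal pigment epithelium (RPE) and poorer in photoreceptor markers, with medians of 6.14 and −6.57 log2 units over the lists, but all choroids held some photoreceptor RNA. The summed photoreceptor markers of a choroid were 0.17% to 4.09% of those in the same mouse's retina in 17 mice, and 9.44%, 10.6% and 9.68% in mice 6, 9 and 15. Tgfbr2, the floxed gene, measured 10500 ± 425 (SD, n = 5) in control – PLX choroids and 10180 ± 1077 (SD, n = 5) in Tgfbr2ΔEC – PLX choroids, which is a level over all cell types and was not lower by the test (log2 −0.05). Csf1r, the target of PLX5622, fell from 8035 to 3964 in choroid and from 556.3 to 60.55 in retina (means of 10 mice each).

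In the choroid, the 6 members were expressed in each of the 20 libraries, and none was at or under the floor. Levels between genes were compared per kilobase of annotated exon. In control – PLX choroids Ms4a6d was highest with 563 ± 40.4 normalized counts per kilobase, followed by Ms4a7 with 468 ± 30.6, Ms4a6c with 295.9 ± 48.4, Ms4a4a with 292.3 ± 18.3, Ms4a6b with 199.9 ± 31.1 and Ms4a4c with 114.7 ± 57.7 (SD, n = 5 each). Ms4a6d lay above Ms4a7 in these mice without overlap. The neighbours Ms4a6c and Ms4a4a overlapped, as did Ms4a6b and Ms4a4c, so their order is not separated from the spread between mice. The order was the same when the longest transcript was used in place of all exons, but the distances changed. Ms4a7 was then at 578, Ms4a6c at 505 and Ms4a4a at 319.2. The overlaps above and the shares below hold for all exons only. Of the summed level per kilobase, Ms4a6d held 29.18%, Ms4a7 24.32%, Ms4a6c 15.23%, Ms4a4a 15.17%, Ms4a6b 10.3% and Ms4a4c 5.79%. In this group Ms4a4c was also the most variable member, with a coefficient of variation of 50.3% against 6.3% to 16.3% in the other members, but in control + PLX choroids it was the least variable, with 18.1% against 25.1% to 54.9%.

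**Figure D1:**
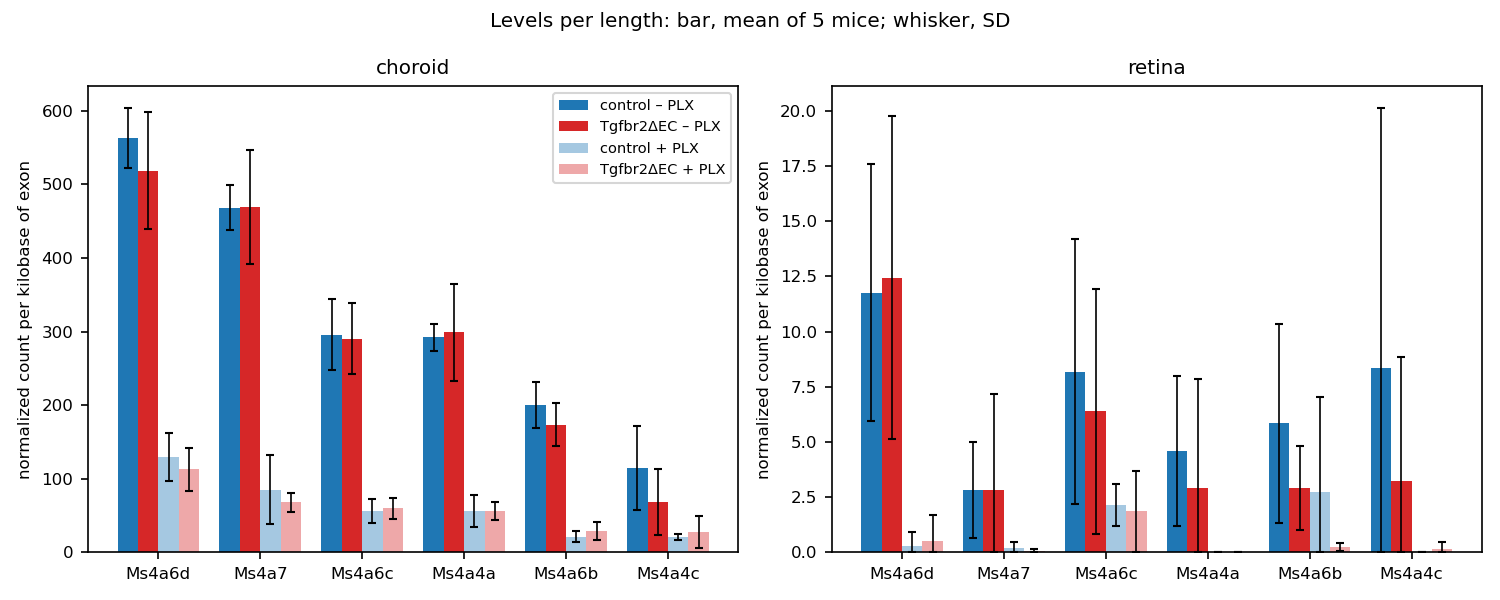
Mean normalized counts per kilobase of exon (bars, whiskers SD, n = 5 mice) of the 6 members in choroid (left) and retina (right), on different vertical scales that start at 0; whiskers that would pass below 0 are clipped. Without PLX the choroid ran from 563 for Ms4a6d down to 114.7 for Ms4a4c in control mice, against 2.82 to 11.8 in the retina.

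The first comparison asked which part of Ms4a expression remained when MP were depleted. In choroid, all 6 members fell with PLX over both genotypes, where 5.06% of the 23619 genes tested were called lower. The median of the members was −2.39 log2 units and that of all genes 0.001. Mean levels with PLX were 13.7% of those without PLX for Ms4a6b, 16.4% for Ms4a7, 19% for Ms4a4a, 19.8% for Ms4a6c, 22.4% for Ms4a6d and 26.4% for Ms4a4c, while 49.3% of Csf1r remained. In 5 of the 6 members every choroid without PLX lay above every choroid with PLX, a separation seen in 1.75% of all genes tested. In bulk tissue, fewer cells of a type and less RNA per cell cannot be told apart.

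Ms4a7, the marker of border and blood-derived macrophages, measured 2015, 2307, 2008, 1973 and 2123 normalized counts in the control – PLX choroids and 2063, 1960, 2148, 2616 and 1666 in the Tgfbr2ΔEC – PLX choroids. With PLX it measured 250.8, 721.7, 431, 293.5 and 204.7 in control mice and 235.6, 364, 364.9, 265.6 and 287.1 in Tgfbr2ΔEC mice. The highest choroid with PLX, that of mouse 12, was still under the lowest without PLX, and relative to their mean the levels of control + PLX mice were the most spread (coefficient of variation 54.9%). The difference was −2.69 log2 units (95% interval −3.04 to −2.35, limma, Benjamini-Hochberg adjusted p = 2.85e-10), or 6.11-fold lower in the means of 10 mice.

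Ms4a4a, the neighbour of Dectin-1 in macrophage membranes, measured 385.2, 399.1, 423.6, 453.7 and 419.7 in control – PLX choroids and 372.4, 497.9, 535.7, 417.5 and 305.1 in Tgfbr2ΔEC – PLX choroids. After PLX the values were 52.37, 72.95, 119.4, 104 and 53.04 in control mice and 83.03, 103.6, 75.49, 55.83 and 80.21 in Tgfbr2ΔEC mice. The diets did not overlap, and the control – PLX mice were within 1.18-fold of each other. Ms4a4a fell by 2.42 log2 units (interval −2.74 to −2.10, limma, Benjamini-Hochberg adjusted p = 4.99e-10).

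Ms4a6d, the partner of VSIG4, measured 914.2, 963.5, 983.8, 930.4 and 1092 in control – PLX and 911.8, 820.2, 1103, 933.2 and 731.9 in Tgfbr2ΔEC – PLX choroids. With PLX the control choroids held 201.5, 245.4, 277.2, 263.1 and 137.8 and the Tgfbr2ΔEC choroids 213.3, 263.7, 177.5, 122.5 and 201.1. The diets were again separate, and mouse 15 and mouse 19 were the lowest of their groups. The fall of 2.19 log2 units (interval −2.47 to −1.91, limma, Benjamini-Hochberg adjusted p = 2.54e-10) was the smallest of the members without overlap.

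Ms4a6c, which is found in monocytes and macrophages, measured 1274, 1373, 1839, 1265 and 1498 in control – PLX and 1538, 1468, 1639, 1445 and 1020 in Tgfbr2ΔEC – PLX choroids. The + PLX values were 220.3, 375.4, 325.6, 276.1 and 173.8 in control and 316.9, 384.4, 259.7, 196.3 and 316.9 in Tgfbr2ΔEC mice. No choroid with PLX reached the lowest value without it, that of mouse 10. Its difference was −2.36 log2 units (interval −2.65 to −2.07, limma, Benjamini-Hochberg adjusted p = 1.98e-10).

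Ms4a6b, the closest relative of Ms4a6c in sequence, measured 805.7, 822.1, 1137, 817.4 and 926.9 in control – PLX and 972, 825.6, 733.7, 767.5 and 616.6 in Tgfbr2ΔEC – PLX choroids. With PLX it held 61.03, 105.5, 134.1, 122.5 and 64.21 in control and 203.6, 182.2, 88, 103.2 and 90 in Tgfbr2ΔEC mice. The diets were separate, and mice 16 and 17 were the highest of those on PLX. The fall of 2.94 log2 units (interval −3.31 to −2.57, limma, Benjamini-Hochberg adjusted p = 2.13e-10) was the largest estimate among the members. In the sum of the members per kilobase, the share of Ms4a6b was 10.3% in control – PLX and 5.83% in control + PLX choroids, while that of Ms4a6d was 29.18% and 35.57%. In Tgfbr2ΔEC mice the shares were closer, with 9.62% and 8.37% for Ms4a6b and 28.59% and 31.67% for Ms4a6d, and both overlapped between the diets. In control mice the share of Ms4a6b was separate between the diets, and that of Ms4a6d overlapped.

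Ms4a4c, the interferon-induced member, measured 91.37, 200.4, 385.7, 200.3 and 185.2 in control – PLX and 63.75, 229.4, 191.6, 122.6 and 32.38 in Tgfbr2ΔEC – PLX choroids. With PLX the values were 35.76, 43.51, 40.4, 45.5 and 27.98 in control and 9.577, 117.7, 37.72, 37.52 and 52.91 in Tgfbr2ΔEC mice. The diets overlapped in Tgfbr2ΔEC mice, where mouse 10 without PLX was below 4 of the 5 mice with PLX and mouse 17 stood out above its group. Over both genotypes Ms4a4c fell by 1.84 log2 units (interval −2.64 to −1.04, limma, Benjamini-Hochberg adjusted p = 0.00344). The two-sided exact permutation test within genotypes gave p = 0.0007874 for Ms4a4c and 3.149e-05 for each of the other members, the smallest value that this test can give here.

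**Figure D2:**
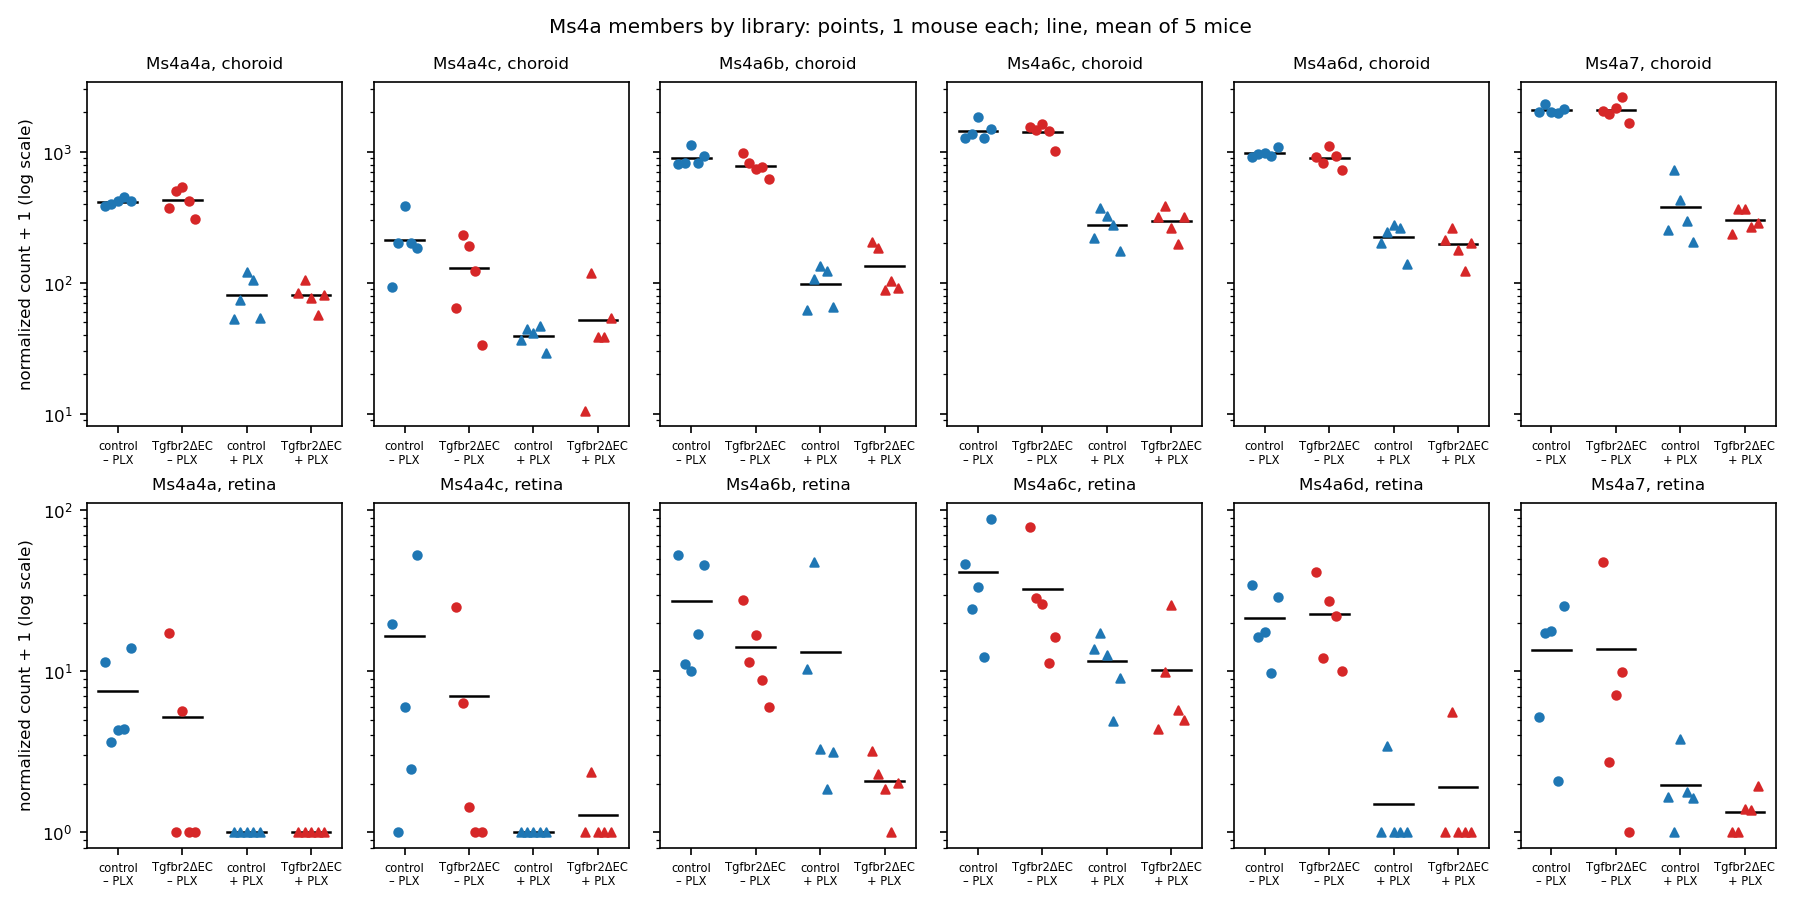
Normalized count plus 1 on a log axis for each of the 6 members (columns) in choroid (top) and retina (bottom). Each point is 1 mouse, lines are means of 5 mice, circles are – PLX and triangles + PLX, blue is control and red Tgfbr2ΔEC; in choroid the group means with PLX lie below those without PLX in all 6 members, single Ms4a4c values overlap between the diets in Tgfbr2ΔEC mice, and many retinas with PLX sit at 0.

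Within control mice all 6 members fell in the choroid, where 3.15% of genes were called lower, by 2.15 (Ms4a6d) to 3.26 (Ms4a6b) log2 units. Within Tgfbr2ΔEC mice 5 of 6 fell, where 3.5% of genes were called lower, by 2.23 (Ms4a6d) to 2.79 (Ms4a7) log2 units. Ms4a4c was the exception, with −1.38 log2 units (interval −2.51 to −0.24, limma, Benjamini-Hochberg adjusted p = 0.196, two-sided exact permutation p = 0.09524). This value ran from −1.78 without mouse 10 to −0.90 without mouse 16. In control mice its difference was −2.31 log2 units (limma, Benjamini-Hochberg adjusted p = 0.0157), and this call rested on mouse 3, whose level was the highest of all: without it the difference was −2.06 with an adjusted p of 0.0543 by the same method. Leaving out mice 6, 9 and 15, whose choroids held the most photoreceptor RNA, gave Ms4a4c a difference of similar size in control mice, −2.20 log2 units, with an adjusted p of 0.0645 (a choice made after seeing the data), and changed no other member's call in the choroid.

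The members did not stand alone in their cluster. Of the 21 Ms4a genes, 8 were called lower with PLX in the choroid, where 5.06% of the genes tested were. Beside the 6 members these were Ms4a14, the next gene beside Ms4a7, and Ms4a8a, a family member described in macrophages and in epithelia. Ms4a14 fell from 405.4 ± 95.8 to 51.44 ± 19.3 (SD, n = 10 each), a difference of −3.02 log2 units (limma, Benjamini-Hochberg adjusted p = 1.29e-09), and Ms4a8a from 41.4 to 10.66, a difference of −1.85 (adjusted p = 4.47e-05 by the same method). Ms4a4d and Ms4a4b lay among the members and were not called. Ms4a4d, between Ms4a6b and Ms4a6d, measured 152.4 ± 36.9 without and 145.5 ± 24.2 with PLX (log2 −0.04, SE 0.151), and Ms4a4b, a gene of T cells between Ms4a4c and Ms4a6c, 28.59 ± 16.6 and 28.79 ± 10.8 (SD, n = 10 each). Ms4a1 and Ms4a2, the B cell and mast cell genes, were low and not called either. Their means were 5.74 and 2.56 without and 7.53 and 8.31 with PLX. In the choroids without PLX, 9 genes of the cluster had a mean under 1. Tmem176a and Tmem176b, distant relatives outside the cluster that are found in dendritic cells and other tissues, measured 3922 and 6119 without and 3635 and 5701 with PLX, with differences of −0.10 and −0.11 log2 units that were not called.

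**Figure D3:**
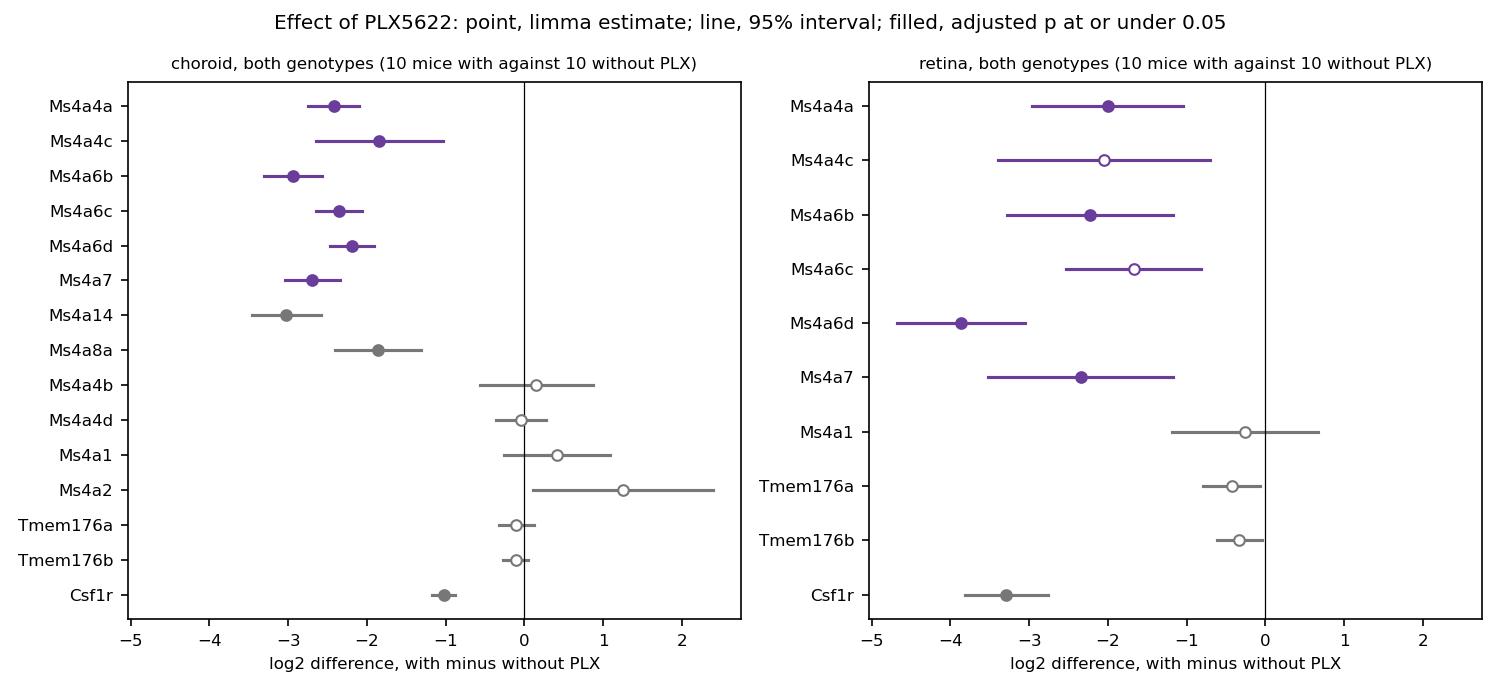
Difference with minus without PLX in log2 units (points, 95% intervals as lines) for the 6 members in purple and for other family genes and Csf1r in grey, in choroid (left) and retina (right), 10 mice against 10; filled points have an adjusted p at or under 0.05. In choroid the members lie between −2.94 and −1.84, Ms4a14 at −3.02 and Csf1r at −1.03; in retina Ms4a6d lies lowest at −3.87.

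Other phagocyte genes were set beside the members in the choroid. Trem2, the receptor linked to human MS4A variation, and the genes of its signalling and of Fc receptors were lower in 12 of 13 cases, with a median of −1.69 log2 units, from −2.47 for the Fc receptor Fcgr1 to −0.13 for the protease Adam10, which was not called. General MP markers were lower in 12 of 13 (median −2.02), with C1qa at −3.40 and Mertk, which RPE and glia also express, at 0.03. Resident macrophage markers were lower in 12 of 12 (median −3.14), from −6.06 for Cd209f to −2.18 for Timd4. Microglia markers were lower in 6 of 10 (median −1.53), and monocyte markers in 2 of 8 (median −0.53), namely Ccr2 at −1.83 and Itgal. The member medians lay between those of resident macrophage and of general MP markers, and the difference between lists was not tested. Fcgr1 stands in both the Fc receptor and the MP list, and Siglech in both the microglia and the dendritic cell list.

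Markers of other cells were also read in the choroid. Dendritic cell markers were lower in 5 of 8 (median −0.94), B cell markers in 1 of 6 (Cd79b), and T cell markers in 1 of 6, which was Cd4 at −2.17, a gene that phagocytes share. Of the mast cell markers 1 of 7, Kit, was higher, and of the endothelial markers 3 of 7 were higher, with Cldn5 at 0.41. No marker of neutrophils (6 tested), photoreceptors (10) or RPE (5) was called, though the median of the photoreceptor markers was −1.10 and that of the other 2 lists 0.17 and 0.14. Relative to the mean log2 level of the 13 MP markers of the same choroid, Ms4a7 went from −1.03 in control – PLX to −1.69 in control + PLX mice, Ms4a6b from −2.25 to −3.56 and Ms4a6d from −2.12 to −2.33. In Tgfbr2ΔEC mice Ms4a7 went from −0.94 to −1.71, Ms4a6b from −2.36 to −2.96 and Ms4a6d from −2.16 to −2.36. Ms4a4a and Ms4a6c also went down in both genotypes, whereas Ms4a4c went from −4.46 to −4.82 in control and from −5.26 up to −4.62 in Tgfbr2ΔEC mice. The MP score includes Mertk, which was not lower with PLX (log2 0.03), and it was not recomputed without this gene. The part that the changed makeup of the tissue had in these values was not tested.

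In the retina the members were scarce. In control – PLX retinas mean levels per kilobase were 11.8 ± 5.83 for Ms4a6d, 8.35 ± 11.8 for Ms4a4c, 8.19 ± 6.02 for Ms4a6c, 5.85 ± 4.51 for Ms4a6b, 4.6 ± 3.38 for Ms4a4a and 2.82 ± 2.16 for Ms4a7 (SD, n = 5 each). All neighbours in this order overlapped. Of the 60 values of 6 members in 10 retinas without PLX, 7 were listed at 0 and 12 were at or under the floor of 3 reads. With PLX 31 of 60 were listed at 0 and 46 were at or under the floor, so what remained in the retina is mostly below what these libraries can measure.

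Ms4a6d was the member with the clearest difference in the retina. It measured 33.54, 15.28, 16.47, 8.74 and 28.09 in control – PLX and 40.45, 11.03, 26.17, 21.17 and 9.073 in Tgfbr2ΔEC – PLX retinas. With PLX it was listed at 0 in 8 of 10 retinas, and measured 2.455 in mouse 12 and 4.572 in mouse 17. Every retina without PLX lay above every retina with PLX, which held for 1 of the 6 members and for 0.422% of the 23243 genes tested. Its mean with PLX was 0.70, so Ms4a6d passed the filter on low values only through the retinas without PLX. The difference was −3.87 log2 units (interval −4.68 to −3.05, limma, Benjamini-Hochberg adjusted p = 1.18e-06) on the scale of log2(normalized count + 1), and −2.11 with a pseudocount of 5, since the level with PLX is at the floor.

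Over both genotypes 4 of 6 members were called lower in the retina, where 1.08% of genes were. Of those called, Ms4a4a, Ms4a6d and Ms4a7 had means with PLX of 0, 0.70 and 0.66, under the filter's mean of 1. They passed the filter only through the retinas without PLX and could only come out lower. The same held for Ms4a4c, with a mean of 0.14, which was not called. Ms4a6b measured 51.6, 10.1, 9.092, 16.03 and 45.11 in control – PLX and 26.84, 10.45, 15.78, 7.864 and 5.018 in Tgfbr2ΔEC – PLX retinas. With PLX it measured 9.289, 46.74, 2.297, 0.8501 and 2.153 in control mice and 0 to 2.218 in Tgfbr2ΔEC mice. Mouse 12 on PLX thus lay among the highest retinas without PLX. The difference of Ms4a6b was −2.23 log2 units (limma, Benjamini-Hochberg adjusted p = 0.0277), and it was no longer called when any one of mice 1, 5, 6, 8, 13, 14, 15, 18, 19 and 20 was left out (−2.59 to −2.01 log2 units over all 20 single mice).

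Ms4a7 measured 4.222, 16.26, 16.85, 1.084 and 24.31 in control – PLX, 46.57, 1.746, 6.104, 8.943 and 0 in Tgfbr2ΔEC – PLX and at most 2.799 in the 10 retinas with PLX. Its difference was −2.35 log2 units (limma, Benjamini-Hochberg adjusted p = 0.0431). This call was lost without any one mouse other than mice 4, 7, 10 and 13 (−2.67 to −1.98). Ms4a4a measured 10.38, 2.637, 3.326, 3.366 and 13.05 in control – PLX and 16.21, 0, 4.704, 0 and 0 in Tgfbr2ΔEC – PLX retinas, and was listed at 0 in all 10 with PLX. It was called (limma, Benjamini-Hochberg adjusted p = 0.0311), but no fold can be given against a group at 0, and the call was lost without any one of mice 1, 5, 8 and 11 to 20.

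The remaining members were not called in the retina. Ms4a6c measured 45.63, 23.27, 32.62, 11.3 and 87.84 in control – PLX and 78.4, 27.43, 25.05, 10.27 and 15.34 in Tgfbr2ΔEC – PLX retinas. With PLX it measured 12.68, 16.31, 11.57, 3.896 and 8.106 in control and 3.37, 8.93, 24.65, 4.755 and 3.965 in Tgfbr2ΔEC retinas, and was the only member above the floor in each of them. Its ranges overlapped and the difference was −1.67 log2 units (limma, Benjamini-Hochberg adjusted p = 0.053), which was called without mouse 4, 9 or 18. Ms4a4c reached 52.18 in a retina without PLX and 1.379 in one with it, and was listed at 0 in others of both diets (log2 −2.05, limma, Benjamini-Hochberg adjusted p = 0.255). Within each genotype 1 of 6 members was called, Ms4a6d, with −3.92 log2 units in control mice, where 0.727% of genes were called lower, and −3.81 in Tgfbr2ΔEC mice, where 0.512% were.

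The retinas of mice 1, 5 and 6 held the most member RNA, with sums over the 6 members of 164.2, 250.6 and 232.6 normalized counts, against 29.44 to 83.32 in the other 7 mice without PLX. They were also the retinas with the highest sums of the 13 MP markers, 5011, 5954 and 5329 against 1971 to 3821. Their sums of the 5 RPE markers were the lowest among mice without PLX, 5423, 7166 and 8139 against 9738 to 14530. Resident macrophage markers summed to 2267 in mouse 1 and to 397.1 to 609.9 in the other 9 mice without PLX. Without these 3 mice, 1 of 6 members was called in the retina, Ms4a6d with −3.50 log2 units (limma, Benjamini-Hochberg adjusted p = 7.78e-05), and this choice was made after seeing the data. The member sum of the retina was 2.99%, 4.01% and 3.93% of that in the choroid of the same mouse in mice 1, 5 and 6, and 0.67% to 1.23% in the other 7. The part that these markers had in the retinal member levels was not tested.

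**Figure D4:**
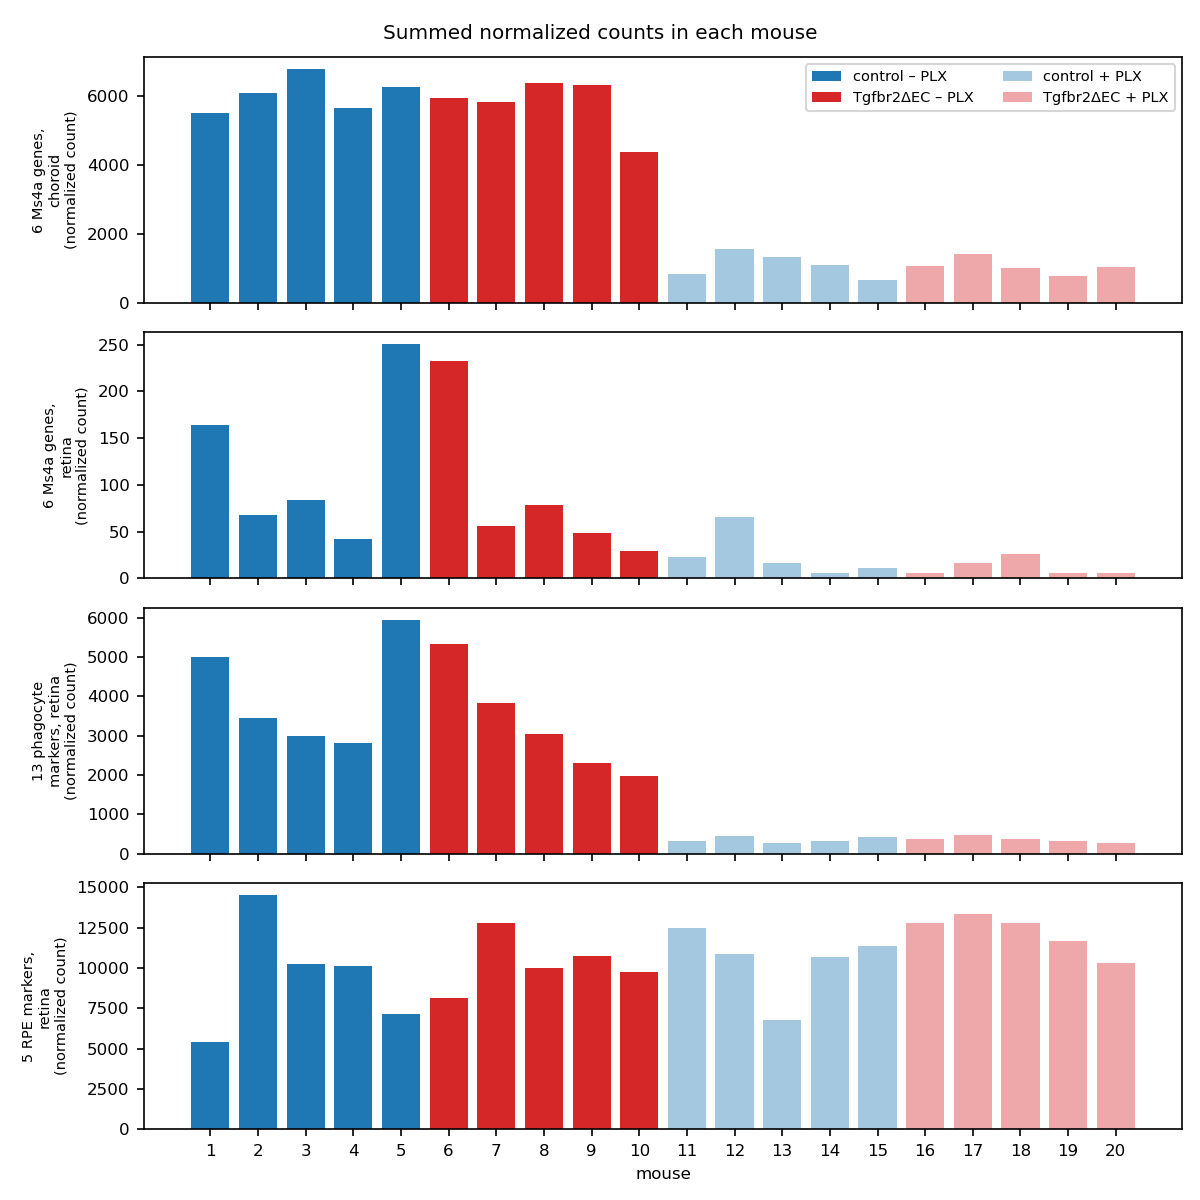
Summed normalized counts in each of the 20 mice: the 6 members in choroid, the 6 members in retina, 13 MP markers in retina and 5 RPE markers in retina (each bar 1 mouse, axes from 0, colours for the 4 groups). Mice 1, 5 and 6 stand above the other retinas in the members (164.2, 250.6 and 232.6), while mouse 12 is the highest retina with PLX (65.51).

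Other phagocyte genes of the retina were read beside the members. Microglia markers were called lower in 9 of 10 (median −4.09 log2 units), led by Cx3cr1 at −7.37, and MP markers in 12 of 13 (median −5.31, or −4.68 when a gene listed at 0 in all retinas with PLX is set to the floor). Trem2 and Fc receptor signalling genes were called lower in 10 of 13 (median −3.27), with Tyrobp at −6.12. Resident macrophage markers were called in 4 of 10 (median −1.42, or −0.25 with genes at 0 set to the floor), dendritic cell markers in 2 of 8 (−1.15 or −0.18), monocyte markers in 1 of 8, Ccr2, and B cell markers in 1 of 6, Cd22. No marker of T cells (3 tested), mast cells (1), neutrophils (3), photoreceptors (10), RPE (5) or endothelium (7) was called, and neither was any of the 3 other family genes tested, Ms4a1, Tmem176a and Tmem176b (median −0.33). The members had a median of −2.14, also with Ms4a4a at the floor.

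Between the tissues, all 6 members were higher in the choroid than in the retina of control – PLX mice, where 34.1% of 24317 genes were. Mean ratios were 166.2 for Ms4a7, 63.5 for Ms4a4a, 47.8 for Ms4a6d, 36.1 for Ms4a6c, 34.2 for Ms4a6b and 13.7 for Ms4a4c, against 14.6 for Csf1r. On the log2 scale the differences were 4.81 for Ms4a4c to 7.75 for Ms4a7, with no overlap between tissues in any member (limma, Benjamini-Hochberg adjusted p = 1.28e-06 for Ms4a4c and 4.4e-14 for Ms4a7). The two-sided exact permutation p was 0.007937 for each, the smallest that 5 against 5 libraries can give. Both tissues came from the same 5 mice, and this test and the limma fit used here ignored that pairing. The permutation p therefore overstates the number of animals. These are ratios of whole tissues and not of cells.

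The size of the PLX difference was then compared between tissues. It differed for Ms4a6d, which fell by 1.68 log2 units more in the retina than in the choroid (interval 0.84 to 2.51, limma, Benjamini-Hochberg adjusted p = 0.0222), where 1.37% of genes were called in either direction. The retinal level of Ms4a6d with PLX was at the floor, and the difference was −0.05 log2 units with a pseudocount of 5, 1.33 (adjusted p = 0.249 by the same method) without mice 1, 5 and 6 and 1.53 (adjusted p = 0.116) without mice 6, 9 and 15. The call was also lost without any one of mice 1, 5, 6, 13, 14, 16 and 20. In the other members the difference was −0.71 to 0.21 log2 units and not called, but most of their retinal values with PLX were at or under the floor too, and the differences moved with the pseudocount and the mice used. With a pseudocount of 5, Ms4a4a was called at −1.50 and Ms4a6b at −1.57 log2 units, and Ms4a4c turned from 0.21 to −0.68. Ms4a4c was −1.19 without mice 1, 5 and 6, −0.06 without mice 6, 9 and 15, and also below 0 without mouse 1, 5 or 6 alone.

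The study's central comparison was that of the genotypes. In the choroid none of the 6 members was called between Tgfbr2ΔEC and control mice, either without PLX or with PLX, where 0.00423% of genes were called in each diet (1 gene, the same identifier without a symbol, ENSMUSG00000110019, in both). Without PLX the differences were 0.01 log2 units for Ms4a4a, −0.01 for Ms4a7, −0.03 for Ms4a6c, −0.13 for Ms4a6d, −0.21 for Ms4a6b and −0.90 for Ms4a4c. The intervals were −0.45 to 0.46 for Ms4a4a and −0.50 to 0.48 for Ms4a7, and that of Ms4a4c was wider, from −2.04 to 0.23. The value of Ms4a4c ran from −1.19 without mouse 7 to −0.49 without mouse 10. With PLX the differences were −0.20 (Ms4a6d) to 0.43 (Ms4a6b). With single mice left out these ran from −0.367 to −0.045 for Ms4a6d and from 0.25 to 0.56 for Ms4a6b, and each other member changed sign. Adjusted p-values (limma, Benjamini-Hochberg) were 0.697 to 1.0 without and 1.0 with PLX. The difference of the genotype differences between diets was −0.93 (Ms4a4c, −1.41 without mouse 16 and −0.52 without mouse 10) to 0.19 (Ms4a7) log2 units, and 0 of 6 members were called, as were 0% of genes. At an unadjusted p under 0.05 by limma, 2184 of 23619 genes passed by genotype without PLX, 889 with PLX and 1552 for the difference between diets. A share of 0.05 of the genes tested would pass by chance alone, and no member was among those that did. The count of genes called without PLX rose to 411 without mouse 15, with 0 of 6 members. The summed photoreceptor markers were 46060 to 134000 in the Tgfbr2ΔEC – PLX choroids and 2794 to 26560 in the control – PLX choroids, but 0 of 10 of these markers were called (median 2.48 log2 units). With PLX the sums overlapped, with 6519 to 20610 in Tgfbr2ΔEC and 2403 to 129400 in control mice, and again 0 of 10 were called (median 0.20). With the photoreceptor marker score as a covariate, the differences without PLX were 0.23 for Ms4a6c, 0.10 for Ms4a6d and 0.12 for Ms4a7, thus of the other sign, and −0.31 for Ms4a4c, and 0 of 6 members were called.

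In the retina the genotype differences of the members were −1.36 (Ms4a4a) to 0.02 (Ms4a6d) log2 units without PLX and −1.68 (Ms4a6b) to 0.25 (Ms4a4c) with PLX. With single mice left out, the values without PLX ran from −2.06 to −1.03 for Ms4a4a and from −0.24 to 0.27 for Ms4a6d. No member was called in either diet or for the difference between diets, and neither was any gene (0% in each of the 3 comparisons, limma). At an unadjusted p under 0.05 by limma, 758, 629 and 567 of 23243 genes passed, where a share of 0.05 would pass by chance alone. The members among them were Ms4a4a without PLX, with an unadjusted p of 0.0499, and Ms4a6b with PLX, with an interval of −3.17 to −0.19. Without mouse 12 the difference of Ms4a6b was −0.95 log2 units.

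Over mice of the same group the members varied together to different degrees. After the group means were taken out, Pearson's r between members over 20 choroids was 0.10 to 0.87 in the 15 pairs (median 0.53), highest between Ms4a6c and Ms4a6d and lowest between Ms4a4c and Ms4a6b. In 20 retinas it was 0.06 to 0.68. The points share the library and its scaling, so these values are a description. Over the 10 retinas without PLX, r of the members with the mean level of a marker list was 0.65 to 0.92 for MP markers, 0.77 to 0.90 for dendritic cell markers, 0.64 to 0.90 for neutrophil markers, 0.46 to 0.89 for monocyte markers and 0.49 to 0.89 for resident macrophage markers. The neutrophil markers were near the floor there, with sums of 4.48 to 58.4 normalized counts over 7 genes. Endothelial markers (0.44 to 0.71) and the other Ms4a family genes (0.35 to 0.71) also had positive values. The range was −0.29 to 0.36 for microglia markers, −0.80 to 0.11 for RPE markers and −0.78 to −0.28 for photoreceptor markers. In the 10 choroids without PLX, r was 0.32 to 0.78 for MP markers, −0.08 to 0.52 for dendritic cell markers, −0.39 to 0.25 for neutrophil markers, 0.14 to 0.73 for monocyte markers and −0.44 to −0.19 for resident macrophage markers. There it was −0.81 to −0.15 for microglia markers and −0.42 to 0.22 for photoreceptor markers. The positive values with dendritic cell, neutrophil and resident macrophage markers in the retina were thus not all seen in the choroid.

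**Figure D5:**
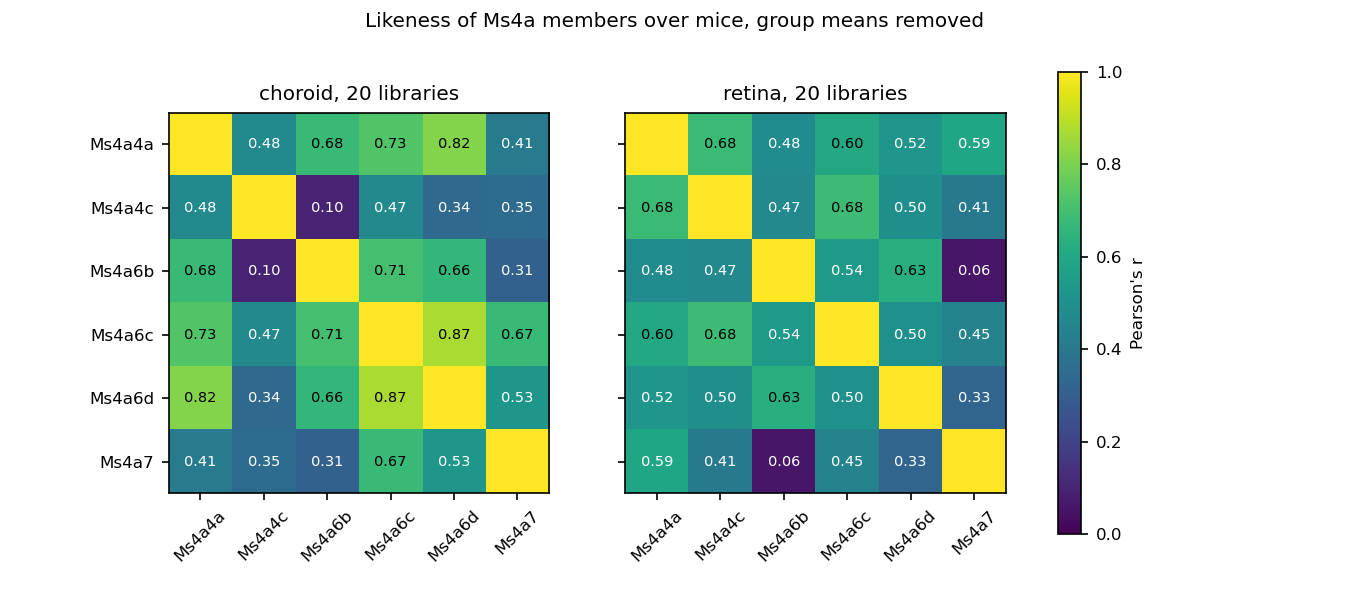
Pearson's r between the log2 levels of the 6 members after subtracting group means, in 20 choroid (left) and 20 retina libraries (right); colours run from 0 to 1 and each cell prints its r. Ms4a6c and Ms4a6d are most alike in choroid (0.87), Ms4a4c and Ms4a6b least (0.10).

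For each member, the 3 genes whose log2 levels followed it most closely over all 40 libraries were taken among 18160 genes whose mean reached 10 normalized counts. The coefficients rest on the differences between tissues and diets that the libraries share. For Ms4a4a these were Wfdc17 (r = 0.99), the C-type lectin Clec12a (0.99) and the endosomal RNA sensor Tlr8 (0.99), and for Ms4a7 Cd300ld (0.98), Gm36161 (0.98) and Wfdc17 (0.98). Ms4a4c was closest to Slfn1 (0.97), Oas2 (0.97) and Slfn4 (0.96), all known as interferon-stimulated genes. Ms4a6b was closest to the sialic acid receptor Siglec1 (0.97), Ms4a6c (0.96) and Lyl1 (0.96). Ms4a6c followed Tasl (0.98), Irf8 (0.98), a transcription factor of monocytes and dendritic cells, and Neurl3 (0.98). Ms4a6d followed the kinase gene Btk (0.99), Arhgap30 (0.99) and Sash3 (0.99). With group means taken out, r with the same 3 genes was 0.78 to 0.84 for Ms4a4a, 0.78 to 0.85 for Ms4a4c, 0.43 to 0.56 for Ms4a6b, 0.65 to 0.68 for Ms4a6c, 0.55 to 0.70 for Ms4a6d and 0.63 to 0.72 for Ms4a7.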

How the data were processed

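RNA-seq libraries of choroid and retina were made by the authors from polyA RNA of 20 mice and read as single stranded reads. The authors checked reads with FastQC (0.11.5), estimated reads per gene with Salmon (1.10.1) on GRCm39, and deposited 1 table of DESeq2 (1.36.0) normalized values for all 40 libraries, used here as a signal on a linear scale. Low values, those of a few reads, lay close to a whole multiple of the value of 1 read in only 50.1% to 77.7% of cases. For this reason no count model was run. The value of 1 read was taken as the commonest low value of a library, and depth was estimated from it.

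Here log2(normalized count + 1) was fitted with limma (3.58.1, R 4.3.3, trended variance) with the 4 groups of a tissue, or the 8 groups of both, in one fit, over genes with a mean of at least 1 (23619 in choroid, 23243 in retina, 24317 in both). Calls were Benjamini-Hochberg adjusted p at or under 0.05 over all genes tested. Single values were also tested by exact permutation over mice in Python (3.11.15), and between tissues over libraries without regard to the pairing. The sex and neuronal percentage in the authors' model were not in the labels and were replaced by scores in alternatives. Genes named were the members, the other Ms4a genes, Tmem176a and Tmem176b, the 3 genes most correlated with each member, the lowest and highest gene of each marker list, Tgfbr2 and Csf1r. Other genes were named after their values were seen. The members and lists were chosen with earlier results of these data known. Of 54307 genes, 53700 matched the annotation used for symbols, exon lengths and promoters. The promoter window of 1 member is not reported here. 50-base stretches were compared with all transcripts by blastn (2.17.0).

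The label number pairs a choroid and a retina of 1 mouse. Deviations from group means over 15687 genes correlated between both tissues of a mouse with r of −0.197 to 0.354 (median 0.181). No pair of libraries within a group was a duplicate (80 pairs). Alternatives were other pseudocounts, filters, scalings and covariates, fits on only the groups compared, a mouse block, and leaving out each mouse.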

Additional observations from a re-analysis of the deposited data

Results flagged for a closer look

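In 9 of 45 groups of 5 libraries, 1 library stood apart from the other 4 by Dixon's ratio of the gap to the range (above 0.71), where chance flags about 1 in 20, or 2.2 groups. All 9 were retina groups. In 3 of them the other 4 libraries were listed at 0, so that the ratio is 1.000 by construction, and in 2 of these the high value was itself at or under the floor of 3 reads (1.379 and 2.455), so the count of 9 cannot be read against 2.2. Among Tgfbr2ΔEC – PLX retinas it was mouse 6 for Ms4a4c (24.14 against the next value of 5.339, ratio 0.779), for Ms4a6c (78.4 against 27.43, ratio 0.748) and for Ms4a7 (46.57 against 8.943, ratio 0.808). Among control + PLX retinas it was mouse 12 for Ms4a6b (46.74 against 9.289, ratio 0.816) and for Ms4a6d (2.455 against 0, ratio 1.000), and mouse 13 for Ms4a7 (2.799 against 0.7764, ratio 0.723). Among Tgfbr2ΔEC + PLX retinas it was mouse 17 for Ms4a4c (1.379 against 0, ratio 1.000) and for Ms4a6d (4.572 against 0, ratio 1.000), and mouse 18 for Ms4a6c (24.65 against 8.93, ratio 0.739).

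The PLX difference of Ms4a6d differed between the tissues by 1.68 log2 units in the test of the difference itself. The call was lost in 9 of 30 alternatives with the same direction and in 1 more, a pseudocount of 5, where the difference reversed to −0.054, as 8 of 10 retinas with PLX were listed at 0.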

How the results depend on the processing

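Of 2466 recomputed values of single members, 2311 kept their direction and side of the threshold or stayed within 1 SD, 59 lost and 11 gained a call, 84 moved and 1 reversed. All 6 members stayed called lower in choroid over both genotypes and higher in choroid than retina under every alternative run. The retinal calls did not hold as well. The members called lower in retina over both genotypes (4) were 1 with a pseudocount of 5 or without mice 1, 5 and 6, 2 without a filter, 2 with a minimum mean of 10 (where only Ms4a6b, Ms4a6c and Ms4a6d were tested, so that Ms4a4a and Ms4a7 left the count by the filter), and 1 to 5 when single mice were left out (1 or 2 without mouse 1, 5, 6, 8 or any of 11 to 20). In control mice (1) they were 2 with a pseudocount of 0.5, 2 in a fit of only the groups compared, and 1 to 2 without single mice (2 without mouse 6). In Tgfbr2ΔEC mice (1) they were 2 in a fit of only the groups compared and 1 to 2 without single mice (2 without mouse 12). For the PLX difference between tissues (1 member, Ms4a6d), they were 2 with a pseudocount of 5, which reversed Ms4a6d to −0.054 and called Ms4a4a and Ms4a6b, 0 without mice 1, 5 and 6 or without mice 6, 9 and 15, and 0 to 1 without single mice (0 without mouse 1, 5, 6, 13, 14, 16 or 20). The cause was not tested.

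With the mouse as a block, which pairs the tissues, 6 members were higher in choroid (16049 genes called in all) and 1 differed in its PLX difference (268 genes, Ms4a6d with an adjusted p of 0.0144 by limma), and no member's call changed.

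Over all genes, the counts called by genotype in choroid without PLX (1) were 0 with a minimum mean of 10, 201 in a fit of only the groups compared and 1 to 411 without single mice (411 without mouse 15). With PLX (1) they were 0 with a pseudocount of 5, a minimum mean of 10, the photoreceptor marker score or the sex score as covariate, only the groups compared or without mice 6, 9 and 15, and 0 to 1 without single mice. In retina with PLX (0) they were 0 to 1 (1 without mouse 12). The counts called for PLX in choroid were 578 in control mice in a fit of only the groups compared (885 before), and in Tgfbr2ΔEC mice 534 with the photoreceptor marker score and 625 without mice 6, 9 and 15 (958 before). In retina they were 154 over both genotypes (254 before) and 104 in control mice with a minimum mean of 10, and 100 in control mice without mice 1, 5 and 6 (171 before). For the difference between tissues (332) they were 278 to 620 without single mice (620 without mouse 15). The exclusion of 3 mice at a time was chosen after seeing the data. Retinal levels with PLX are limited by depth, as most lie at or under 3 reads.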
